A study of Mus musculus with 6 samples.

Results

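The contractile genes of liver myofibroblasts were examined as a set of 10 genes chosen by name, Acta2, Tagln, Myl9, Tpm1, Tpm2, Cnn1, Des, Myh11, Lmod1 and Actg2, out of 19349 genes in the count tables. The cells were liver non-parenchymal cells (LNPCs), that is, liver cells other than hepatocytes, profiled by the 10x Genomics droplet method in 6 libraries. Male C57BL/6J mice bought at 8 weeks of age had received a high-fat diet for 24 weeks, the study's model of nonalcoholic steatohepatitis (NASH). During the final 8 weeks the mice were given vehicle (DMSO) or ginkgetin, a biflavone from plants, by the intragastric route at a daily dose of 10 mg/kg, with 3 libraries per group and no library from chow-fed mice among them. Whether a library held cells of 1 animal or several is not given in the sources used here, so the p-values below measure the spread between these libraries.

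Hepatic stellate cells store vitamin A in the healthy liver, and in fibrosis they turn into myofibroblasts that lay down collagen and contract. The contractile state is marked by α-smooth muscle actin, the product of Acta2, and by proteins that assemble with it. Vascular smooth muscle makes the same proteins at high levels without any injury, whereas some of them, such as the tropomyosin of Tpm1, belong to the cytoskeleton of many cells. Many smooth muscle genes are regulated by serum response factor, which binds a motif called the CArG box.

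The deposited tables held 33168 barcodes with 13128697 to 61796882 unique molecular identifiers (UMIs) per library, and 27544 barcodes had 250 to 5000 genes and under 5% mitochondrial UMIs. Cells were clustered without the 10 genes, and the clusters were named from other marker genes ("-like"). In either group, replicate 3 used a different barcode set from replicates 1 and 2, and libraries of the same set shared 10 to 85 barcodes per pair. The 233 mesenchymal-like cells that passed comprised 129 stellate-like cells, 53 fibroblast-like cells, 9 smooth muscle-like cells and 42 cells of an unnamed sub-cluster led by Ncam1, Fndc5 and Itga8. All 10 stellate markers were detected in the stellate-like cells of every library.

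Acta2 was rare and very unevenly spread. All deposited barcodes together held 1802 Acta2 UMIs, which lay in 234 barcodes, and the 10 richest barcodes held 72.0% of them. The 20 smooth muscle-like barcodes, 0.0603% of all, held 1309 Acta2 UMIs, whereas the 152 stellate-like barcodes held 109. Acta2 lies at chr19:34241090-34255590 on the minus strand (GRCm38), and the annotation places no other gene over it.

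Of the 7 contractile genes with a promoter window in RefSeq (GRCm38.p6), 1 had an exact CArG box on either strand in the 250 bases before the start, compared with 1.47% of all 32851 windows. With 1 letter off the motif allowed, 4 of the 7 had a match, compared with 18.6% of all windows. The table used had no window for Tagln, Myh11 or Actg2. The box of Myl9 is printed as the only exact match among the 7 genes, and both near matches of Acta2 because this gene is the usual marker of the myofibroblast. Capitals mark the matched letters, 10 bases stand on each side, and the gene's strand is shown.
Myl9, chr2:156775293-156775322: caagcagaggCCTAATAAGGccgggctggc
Acta2, chr19:34255438-34255467: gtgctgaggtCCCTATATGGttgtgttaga
Acta2, chr19:34255388-34255417: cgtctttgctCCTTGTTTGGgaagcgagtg
The box of Myl9 began 161 bases before the start, and those of Acta2 began 84 and 34 bases before it. Both starts are those of RefSeq. That of Acta2 lies inside the GENCODE span given above, and so do both printed stretches. A match describes letters only and does not show binding.

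The smooth muscle genes lay in the same few barcodes. The smooth muscle-like barcodes held 79.6% of the UMIs of Myh11, the myosin heavy chain of smooth muscle, and 89.2% of those of Cnn1, the thin filament protein calponin. They held 73.7% for Actg2, the enteric smooth muscle actin, 62.3% for Myl9, a regulatory light chain of myosin, and 59.0% for Lmod1, an actin filament nucleator. The share was 51.8% for Tagln, which encodes the actin-binding protein transgelin, and 37.1% for Tpm2, a muscle tropomyosin. It was lowest for Des, the intermediate filament protein desmin, at 21.6%, and for Tpm1, at 3.41%. These barcodes were named from 5 of 10 smooth muscle markers and were led by Tnnt2, Notch3 and Pcp4l1. Stellate markers were found in them as well, and mostly in those that passed the filter. The 10 stellate markers summed to a median of 9582 CPM (UMIs scaled to a common total) in the 9 barcodes that passed, 1224 CPM in the 11 removed and 20263 CPM in the 129 stellate-like cells. Lrat, the enzyme of vitamin A storage, was detected in 7 of the 9 and 1 of the 11. The 10 smooth muscle markers summed to medians of 2280, 3927 and 835 CPM in the same order. The 9 cells that passed were thus not free of stellate transcripts, and whether they hold RNA of both cell types was not tested.

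**Figure D1:**
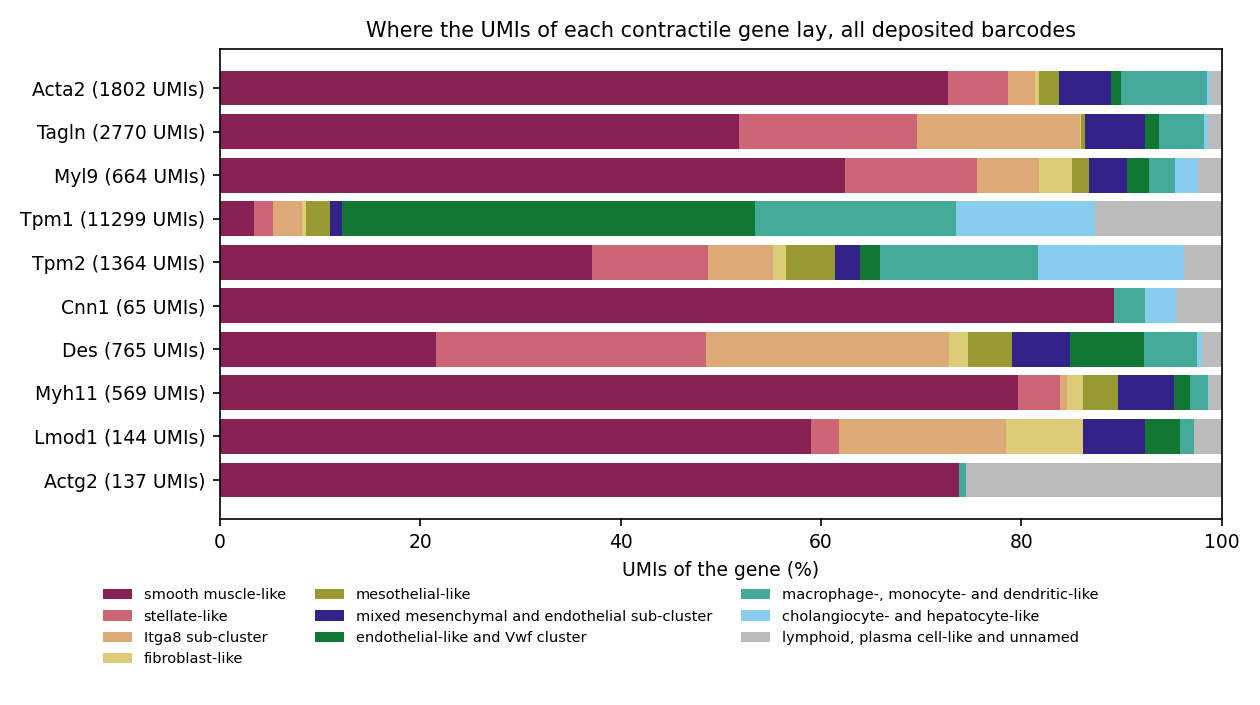
Stacked bars show the percentage of each contractile gene's UMIs (x axis, %) found in each class of barcodes, over all deposited barcodes. Smooth muscle-like barcodes held 72.6% of the Acta2 UMIs and 79.6% of those of Myh11, whereas they held 3.41% of those of Tpm1.

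Most of this signal lay in barcodes that the filter removed. Of the 20 smooth muscle-like barcodes 9 passed, while 10 had 5% or more mitochondrial UMIs and 1 had over 5000 genes. The 11 removed barcodes held 1141 Acta2 UMIs, and the 9 that passed held 168. All 58 Cnn1 UMIs of the class were in removed barcodes. Over all classes the filter kept 27.2% of the Acta2 UMIs, 24.1% of those of Myh11 and 10.8% of those of Cnn1, but 69.1% of those of Tpm1.

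The smooth muscle-like barcodes also differed among themselves. The 5 vehicle barcodes held 7, 44, 137, 170 and 465 Acta2 UMIs, and the 15 ginkgetin barcodes held 0 to 161 with a median of 17. Scaled to each barcode's UMIs, vehicle barcodes lay at 611 to 26110 CPM (median 19367) and ginkgetin barcodes at 0 to 20427 CPM (median 2933). The ranges overlapped widely, and 5 ginkgetin barcodes held 3 or fewer Acta2 UMIs. Barcodes are not replicates, and the groups were not tested on them. The filter kept 7 of the 823 vehicle and 161 of the 486 ginkgetin Acta2 UMIs of this class. All 10 genes together made up 8.23% of the UMIs of 1 barcode of vehicle replicate 3 and 0.242% of 1 barcode of ginkgetin replicate 3. At 1000 UMIs per cell, the 9 cells that passed had a median of 5 of the 10 genes detected, compared with 1 in stellate-like and 0 in fibroblast-like cells.

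Smooth muscle-like barcodes made up 0%, 7.50% and 2.74% of the deposited mesenchymal-like barcodes in vehicle replicates 1, 2 and 3. In ginkgetin replicates 1, 2 and 3 they made up 10.0%, 6.49% and 11.3%. The groups overlapped, with a two-sided exact permutation p of 0.2, where 0.1 is the smallest that 3 libraries against 3 allow.

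**Figure D2:**
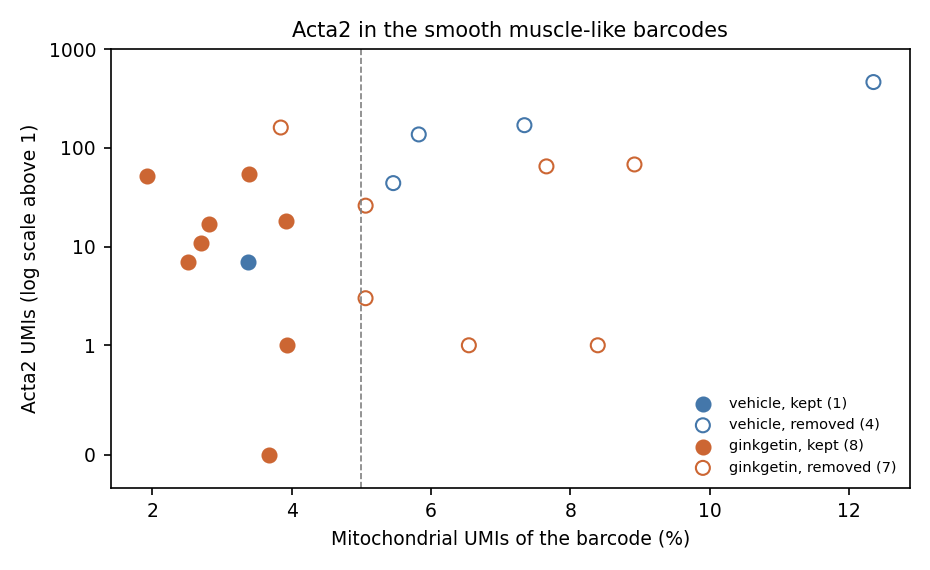
Each point is 1 of the 20 smooth muscle-like barcodes, with its mitochondrial share (x axis, %) and its Acta2 UMIs (y axis, UMIs, log scale above 1), and filled points passed the filter (dashed line at 5%). Of the 5 vehicle barcodes 1 passed, and of the 15 ginkgetin barcodes 8 passed.

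In stellate-like cells Acta2 was seen in a few vehicle cells. Vehicle replicates 1, 2 and 3 had 5, 20 and 10 stellate-like cells with 45, 0 and 37 Acta2 UMIs. Ginkgetin replicates 1, 2 and 3 had 11, 54 and 29 such cells, with 0 Acta2 UMIs in each. The groups overlapped at 0 through vehicle replicate 2. The 8 ginkgetin smooth muscle-like cells that passed held 161 Acta2 UMIs, and most cells of that class also held Lrat. The part of the division into classes in the ginkgetin 0 was not tested. With cells chosen one by one from stellate markers instead (182 cells, 104 of them stellate-like by cluster), the log2 fold change of Acta2 was 0.89, with an adjusted p of 0.976 in edgeR. In all, 6 of 35 vehicle cells had an Acta2 UMI (17.1%, 95% Wilson interval 8.10% to 32.7%), and 0 of 94 ginkgetin cells, which allows a share of up to 3.19% as a limit of 3 counts (upper end of the 95% Wilson interval 3.93%). These intervals and limits cover counting error only.

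Of the 82 Acta2 UMIs, 64 lay in 2 cells, 1 of vehicle replicate 1 with 40 and 1 of vehicle replicate 3 with 24. The first also held 8 UMIs of Lrat and 7 of Reln, both stellate markers, and the second held 5 and 0. Most smooth muscle-like cells that passed held Lrat too. Dcn, a matrix proteoglycan of mesenchymal cells, had 199 of 9807 UMIs in the first cell and 33 of 2998 in the second, compared with 434 of 72182 in the smooth muscle-like cells that passed and 18669 of 806141 in stellate-like cells. Both cells had 0 Myh11 UMIs, whereas each of the 20 smooth muscle-like barcodes had 1 or more. Among the barcodes the filter removed, 1 stellate-like barcode of ginkgetin replicate 1 held 13 Acta2 UMIs at 6.33% mitochondrial UMIs. Over all deposited barcodes, Acta2 was thus found in 8 of 43 vehicle and 1 of 109 ginkgetin stellate-like barcodes.

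The vehicle stellate-like cells were deeper, with a median of 6721 UMIs compared with 4923. With every cell thinned to 1000 UMIs, 4 of 34 vehicle cells (11.8%, Wilson interval 4.67% to 26.6%) and 0 of 94 ginkgetin cells had an Acta2 UMI. In T cell-like cells, where Acta2 is not thought to be made, the thinned share was 0.0320% at a median of 3667 UMIs. Acta2 did not pass the low-count filter of the fit over all genes in stellate-like cells, so it has no value in that fit. Over all deposited barcodes, where it passed, the log2 fold change was -2.49 ± 2.07 (SE), with an adjusted p of 0.893 in edgeR. The fits that called it, without the filter or without vehicle replicate 2, set 1 vehicle library with Acta2 against ginkgetin libraries at 0, and no result is drawn from them.

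Tagln was found in more stellate-like cells than Acta2. The gene lies at chr9:45929619-45936058 on the minus strand, where exons of Pcsk7 and of the antisense gene Gm48529 overlap it on the other strand, and whether the counting used strand is not given in the sources used here. Its level in the summed cells, scaled to a common library total (CPM), was 657 and 2011 in vehicle replicates 2 and 3. The ginkgetin libraries had 429, 150 and 49.2 CPM. The groups did not overlap. Vehicle replicate 1 had fewer than 10 stellate-like cells and was left out of the fit, although its 5 cells held 119 Tagln UMIs. The log2 fold change was -2.79 ± 0.85 (SE), with an adjusted p of 0.784 in the edgeR quasi-likelihood test. It was -1.88 without vehicle replicate 3 and ranged from -3.64 to -1.88 as each library was left out. At 1000 UMIs per cell, 14 of 34 vehicle cells (41.2%) and 12 of 94 ginkgetin cells (12.8%) had a Tagln UMI. All 4 thinned cells with Acta2 also had Tagln, as did 22 of the 124 without Acta2.

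Of the 5 contractile genes tested in stellate-like cells, 0 were called at an adjusted p under 0.05 and a fold over 2 with edgeR, and 0% of all 2450 genes tested were called. In that fit 132 genes had an unadjusted p under 0.05, and DESeq2 called 12 genes. The 5 log2 fold changes were below 0, with a median of -1.26, beside a median of 0.05 over all genes tested.

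Tpm2 stood at 157 and 459 CPM in vehicle replicates 2 and 3, and at 97.6, 99.9 and 102 CPM in the ginkgetin replicates. The groups did not overlap, but the log2 fold change of -1.56 ± 0.50 (SE) had an adjusted p of 0.784 with edgeR. Without vehicle replicate 3 it was -0.73, and over all libraries left out in turn it ranged from -2.18 to -0.73. Tpm1 stood at 305 and 529 CPM, compared with 332, 137 and 86.1 CPM, and the groups overlapped. Des (chr1:75360329-75368579, plus strand, with an exon under the antisense gene Gm15179), at 219 and 282 CPM compared with 137, 162 and 307 CPM, overlapped too. So did Myl9, at 125 and 106 CPM compared with 19.5, 49.9 and 123 CPM. Cnn1 and Actg2 had 0 UMIs in all 129 cells, which at 1000 UMIs allows up to 2.34% of cells with a UMI and does not limit the share of cells that express these genes below detection.

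With the replicate number as a block, edgeR called Tagln (log2 fold change -3.57, adjusted p 5.38e-05) and Tpm1 (log2 fold change -1.82, adjusted p 0.00806) in stellate-like cells, where 2.2% of all genes tested were called. Ginkgetin replicate 1 had no vehicle partner in this blocked fit, which therefore rested on replicates 2 and 3. These were 1 pair from each barcode set, so the adjusted p-values rested largely on the dispersion shared over genes. With barcode set as a term in place of the block, 0 of the 5 contractile genes were called (adjusted p 0.0580 for Tagln and 0.177 for Tpm1 with edgeR), among 20 genes called in all. In the 182 cells chosen one by one, the log2 fold change of Tagln was -0.71, with an adjusted p of 0.912 in edgeR.

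Markers of other cell types were also measured in the stellate-like sums. The summed level of 8 macrophage markers was 190.0, 195.6 and 105.9 CPM in the vehicle libraries and 58.6, 116.5 and 49.2 CPM in the ginkgetin libraries. The smooth muscle markers summed to 999.8 to 1534 CPM in vehicle and 586.2 to 1054 CPM in ginkgetin, with 4 to 5 of 10 detected per library and Pln, Map3k7cl, Nrip2 and Higd1b at 0 in every library. Their part in the results was not tested.

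The unnamed Ncam1 and Itga8 sub-cluster carried contractile transcripts as well, but 27 of its 42 cells came from vehicle replicate 3. Acta2 had 30 UMIs in 12 of 32 vehicle cells and 0 in 10 ginkgetin cells, and Tagln had 189 and 2 UMIs. In vehicle replicate 3 the levels were 59.2 CPM for Acta2, 476 CPM for Tagln and 255 CPM for Des. No other library had 10 such cells, so library and group cannot be told apart here.

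All mesenchymal-like cells together allowed a comparison of 3 libraries with 3. Acta2 stood at 469, 45.2 and 120 CPM in the vehicle libraries and at 0, 118 and 248 CPM in the ginkgetin libraries, in the order of the replicate numbers. The groups overlapped, and the log2 fold change was -0.47 ± 0.92 (SE), with an adjusted p of 0.931 in edgeR. The direction turned without the highest doublet scores (0.52), with the replicate block (0.0026) and without vehicle replicate 1 (0.65). Of the 168 ginkgetin UMIs 161 lay in smooth muscle-like cells. The other 7 lay in fibroblast-like cells of ginkgetin replicate 3, 6 of them in 1 cell, and without the smooth muscle-like cells the adjusted p was 0.331. The fitted fold rests on these 7 UMIs and is not given as a size.

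The make-up of this class differed between the groups. Stellate-like cells numbered 35 in vehicle and 94 in ginkgetin, cells of the Ncam1 and Itga8 sub-cluster 32 and 10, fibroblast-like cells 26 and 27, and smooth muscle-like cells 1 and 8. Over the cells pooled, Tagln stood at 551 CPM in stellate-like cells, 446 CPM in the sub-cluster, 2.23 CPM in fibroblast-like and 2674 CPM in smooth muscle-like cells. The part of the make-up in the Tagln levels by library was not tested.

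Tagln stood at 1213, 506 and 631 CPM in vehicle and at 313, 282 and 291 CPM in ginkgetin. Every vehicle library lay above every ginkgetin library (two-sided exact permutation p = 0.1, the smallest possible), and the log2 fold change of -1.40 ± 0.38 (SE) had an adjusted p of 0.369 with edgeR. In cells of 250 to 5000 UMIs, which left 1 vehicle and 2 ginkgetin libraries, it turned to 1.87, with an adjusted p of 0.260 in edgeR. Of the 6 contractile genes tested here, 0 were called, and 0.0246% of all 4062 genes tested were called (363 had an unadjusted p under 0.05, and DESeq2 called 16). With the replicate block 0 of the 6 were called, beside 0.0492% of all genes. Myh11 had 0, 4.52 and 22.5 CPM in vehicle and 0, 43.7 and 140 CPM in ginkgetin, and the groups overlapped.

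**Figure D3:**
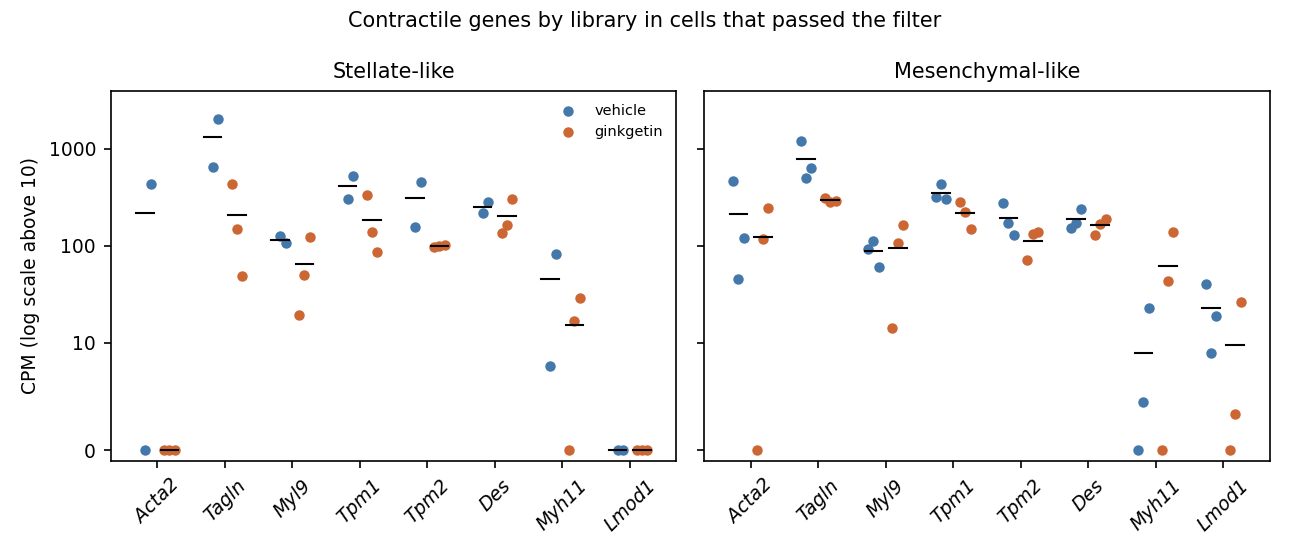
Each point is the level of a contractile gene in 1 library (y axis, CPM, log scale above 10), in stellate-like cells (2 vehicle and 3 ginkgetin libraries) and in all mesenchymal-like cells (3 and 3), with a bar at the group mean. Tagln in mesenchymal-like cells lay at 506 to 1213 CPM in vehicle and 282 to 313 CPM in ginkgetin, whereas Acta2 overlapped.

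In fibroblast-like cells Acta2 and Tagln were at 0 in 2 of 3 libraries, whereas 6 other contractile genes were found more widely. Acta2 stood at 0, 0 and 29.4 CPM and Tagln at 0, 0 and 4.20 CPM in vehicle replicate 2, vehicle replicate 3 and ginkgetin replicate 3, the libraries with 10 or more such cells. Tpm1, at 129, 81.7 and 88.1 CPM, was present in all of them, as were Myl9 at 110.2, 30.7 and 46.2 CPM, Tpm2 at 73.5, 40.9 and 37.8 CPM and Des at 36.7, 81.7 and 4.20 CPM. Myh11 stood at 0, 20.4 and 29.4 CPM and Lmod1 at 0, 10.2 and 37.8 CPM, while Cnn1 and Actg2 were at 0. By mean level over libraries, fibroblast-like cells had rank 2 for Myl9, Myh11 and Lmod1 and rank 3 for Tpm2 and Des among the 17 classes with 10 or more cells in a library. Smooth muscle-like cells, with fewer than 10 in every library, are not among the 17. Pooled over the 9 cells that passed, their levels were higher than those of fibroblast-like cells. They stood at 914 CPM for Myl9, 1011 for Myh11, 83.1 for Lmod1, 790 for Tpm2 and 568 for Des. The range of fibroblast-like cells overlapped those of the neighbouring ranked classes for each of these genes but Des. At 1000 UMIs, 42 of the 53 cells had none of the 10 genes detected. Only 1 ginkgetin library had 10 or more such cells, and the groups were not tested. In the 51 mesothelial-like cells, which line the liver surface, Acta2 stood at 77.8 CPM in vehicle replicate 1 and 76.9 CPM in ginkgetin replicate 3.

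Genes of the same machinery from other lists were not called in stellate-like cells. Of the 12 myosin and light chain regulators 11 were tested, with 7 above 0, 4 below 0 and a median log2 fold change of 0.04. Of 13 stellate activation genes 9 were tested, 8 lay below 0, the median was -1.09 and 0 were called. Timp1, an inhibitor of matrix metalloproteinases, had a log2 fold change of -5.41 ± 0.86 (SE) and an adjusted p of 0.207 with edgeR. Col1a1, a chain of type I collagen, had -2.93 ± 0.78 and an adjusted p of 0.654. The highest fold changes among the lists were 1.06 for Vipr1, a peptide receptor of quiescent stellate cells, and 0.97 for Smtn, a smooth muscle actin-binding protein, with adjusted p-values of 0.813 and 0.875. In mesenchymal-like cells Timp1 was the only gene called (log2 fold change -5.10, edgeR adjusted p 0.0450), and no gene was called without TMM (lowest adjusted p 0.0537), over all deposited barcodes (0.277), without smooth muscle-like cells (0.0672) or in 5 of the 6 fits that left out a library.

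Tpm1 was the most widely found of the 10 genes, with UMIs in all 87 sums of a class in a library, compared with 59 sums for Tpm2 and 48 for Tagln. It lies at chr9:67022590-67049406 on the minus strand. Its level was 305 CPM in the Ncam1 and Itga8 sub-cluster (1 library). The mean level was 278 CPM in stellate-like cells (86.1 to 529, 5 libraries) and 265 CPM in mesothelial-like cells (233 to 296, 2 libraries). It was 124 CPM in endothelial-like cells (92.8 to 187, 6 libraries) and 112 CPM in cholangiocyte-like cells (72.5 to 209). It was 55.4 CPM in hepatocyte-like, 34.1 CPM in NK cell-like, 19.3 CPM in macrophage-like and 14.8 CPM in monocyte-like cells. Neighbours in this order overlapped in range, other than mesothelial-like above endothelial-like cells.

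In macrophage-like cells Tpm1 fell with ginkgetin. The level was 28.6, 31.6 and 30.1 CPM in the vehicle libraries and 5.22, 8.67 and 11.5 CPM in the ginkgetin libraries. The groups did not overlap, although the ginkgetin values rested on 2, 6 and 25 UMIs. The log2 fold change was -2.22 ± 0.24 (SE), with an edgeR adjusted p of 0.0112, and 10.4% of all 10453 genes tested were called in this class. With the replicate block, Tpm2 was called too (adjusted p 0.0401), where 16.1% of genes were called. The ginkgetin libraries held 1, 0 and 0 Tpm2 UMIs and the vehicle libraries 27, 19 and 54, so its fitted fold is not given as a size. The adjusted p of Tpm1 was 0.0881 without vehicle replicate 1, 0.104 without vehicle replicate 2 and 0.0650 without ginkgetin replicate 2. In cells of 250 to 5000 UMIs it was not called either (log2 fold change -1.45 ± 0.47 (SE), edgeR adjusted p 0.113).

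Different clusters made up the macrophage-like class in the groups. A cluster led by Marco and Cd163 held 83.8% of the ginkgetin and 0.543% of the vehicle cells, and Tpm1 stood there at 7.48 ± 3.24 CPM (SD, n = 3 ginkgetin libraries). A cluster led by Fabp7 and Mmp12 held 44.8% of the vehicle and 2.48% of the ginkgetin cells, with Tpm1 at 19.4 ± 1.64 CPM (SD, n = 3 vehicle libraries). Within the cluster led by Ms4a7 and Gpnmb, which held 47.0% and 9.70%, Tpm1 stood at 41.2, 42.0 and 35.4 CPM in vehicle and 0, 16.9 and 15.2 CPM in ginkgetin. The ginkgetin values rested on 0, 3 and 5 UMIs in 16, 37 and 37 cells. The groups did not overlap within this cluster (exact permutation p = 0.1, the smallest possible).

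In endothelial-like cells Tpm1 stood at 136, 121 and 187 CPM in vehicle and 94.5, 92.8 and 111 CPM in ginkgetin. The groups did not overlap, but the log2 fold change of -0.72 ± 0.14 (SE) had an edgeR adjusted p of 0.107, and 0.452% of all 10166 genes tested were called. With the replicate block its adjusted p was 0.00829 at a fold under 2, so that it was not called, beside 4.58% of all genes. The clusters of this class differed between groups and between replicate numbers. A cluster led by Sepp1 and Pde2a held 942 of 1190, 2234 of 2858 and 21 of 1123 cells of the ginkgetin libraries, and 918 cells of ginkgetin replicate 3 lay in one led by Selenop, another symbol of Sepp1. A cluster led by Fabp4 and Lyve1 held 1015 of 1022, 465 of 491 and 18 of 395 cells of the vehicle libraries. Within it, Tpm1 stood at 136, 125 and 183 CPM in vehicle, from 421, 155 and 9 UMIs, and at 194 and 102 CPM in ginkgetin replicates 1 and 2, from 10 and 4 UMIs in 16 and 13 cells. In a cluster led by Ednrb and Cebpd, found mainly in replicate 3 of both groups, it stood at 188 CPM in vehicle (606 UMIs in 371 cells) and 114 CPM in ginkgetin (175 UMIs in 175 cells), with 1 library per group and no test. In NK cell-like cells it stood at 23.2, 19.7 and 23.9 CPM in vehicle and 40.0, 43.5 and 54.1 CPM in ginkgetin, with a log2 fold change of 0.96 and an edgeR adjusted p of 0.348, where 0.0578% of genes were called.

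**Figure D4:**
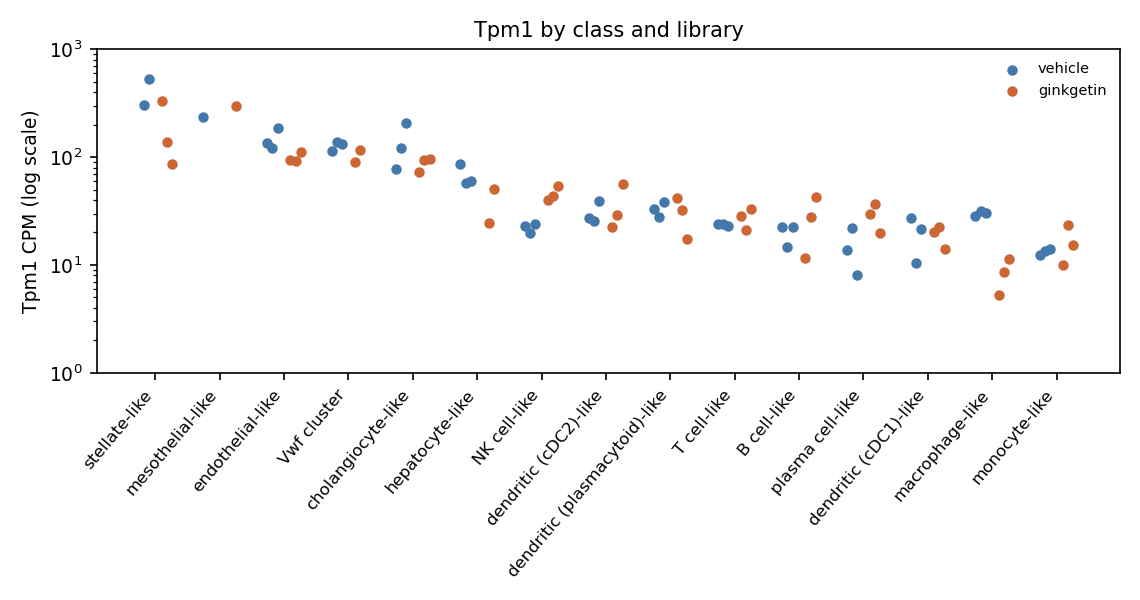
Tpm1 levels per library (CPM, log scale) are plotted for 15 classes of cells, fibroblast-like and the Itga8 sub-cluster left out, with vehicle and ginkgetin libraries as separate points. In macrophage-like cells the vehicle libraries lay at 28.6 to 31.6 CPM and the ginkgetin libraries at 5.22 to 11.5 CPM, and in NK cell-like cells the ginkgetin libraries lay higher.

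Monocyte-like cells held 95 of the 490 Acta2 UMIs that passed the filter, in 80 of 2018 cells, but 15 Tagln UMIs. The thinned share of cells with Acta2 was 0.842% (Wilson interval 0.527% to 1.35%), compared with 0.0320% in T cell-like cells. The level was 5.98, 5.95 and 8.01 CPM in vehicle and 3.97, 3.52 and 5.92 CPM in ginkgetin, so the groups did not overlap by a narrow margin. The edgeR log2 fold change was -0.64, with an adjusted p of 0.535.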

How the data were processed

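The authors deposited 6 tables of raw UMI counts per gene and barcode, with no normalization, from LNPCs run on the 10X Genomics Chromium system. GRCm38 (mm10) is named in the submitters' processing notes, and the aligner is not given in the sources used here. The study states its limit of 250 to 5000 in UMIs. It was read here as genes per cell, which kept 27544 barcodes. As UMIs it kept 16821, further from the number of cells that the study reports. The settings named 250 to 5000 UMIs use the limit as the study states it. All deposited barcodes were clustered with scanpy 1.11.5 (2000 variable genes, 30 components, 15 neighbours, Leiden resolution 1), leaving out the 10 genes and genes at 0 throughout one barcode set (some genes carry an older symbol in replicates 1 and 2 and a newer one in replicate 3), and mesenchymal clusters were clustered again at resolution 0.5. No doublets were removed. Counts were summed per library and class (10 or more cells) and tested with edgeR 4.0.16 (TMM, quasi-likelihood, Benjamini-Hochberg over all genes tested), with DESeq2 1.42.0 as an alternative. The test was checked on simulated counts of 2450 genes for the stellate-like comparison, where it recovered 39 of 100 genes changed 4-fold and 94 of 100 changed 16-fold. It made 3 false calls among 2250 unchanged genes. The simulation gave all genes the same dispersion and no difference between barcode sets, so these rates may not hold for the data. Cells were thinned to 1000 UMIs for shares. Same-numbered libraries deviated together in every class checked with 3 pairs. Correlations of deviations were 0.233 to 0.604 in mesenchymal-like, 0.640 to 0.914 in endothelial-like and 0.414 to 0.799 in macrophage-like cells. Libraries of unlike number were not compared, and replicate 3 had its own barcode set in both groups. The check therefore cannot tell pairing from barcode set. The numbers were taken as pairs in the fits with the replicate block only, not in the main fits or the permutation tests. All 10 genes are described, and from the other lists the 2 tested genes with the largest rise, the 2 with the largest fall and those called. The genes and lists were chosen with earlier results of these data known. A gene among those most like Acta2 is not reported here.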

Additional observations from a re-analysis of the deposited data

Results flagged for a closer look

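Tpm1 levels were lower with ginkgetin in every macrophage-like library and higher in every NK cell-like library, and this pair of classes was chosen after its values were seen. The change in NK cell-like cells did not pass the edgeR test (adjusted p 0.348), and different clusters made up the macrophage-like class in the groups. The log2 ratio of its level in macrophage-like over NK cell-like cells was 0.30, 0.68 and 0.33 in the vehicle libraries and -2.94, -2.33 and -2.24 in the ginkgetin libraries. The difference between the group means was -2.94, with a two-sided exact permutation p of 0.1, the smallest that 3 libraries against 3 allow, on the same values that prompted it.

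Contractile transcripts also lay outside the cells used for the comparisons, in the smooth muscle-like barcodes that the filter removed. These 11 barcodes held 1141 Acta2, 1243 Tagln, 380 Myh11, 99 Actg2 and 58 Cnn1 UMIs. Groups of 3 libraries were not tested for outlying samples.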

How the results depend on the processing

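Over 14 gene results and 207 settings, 196 kept the direction and 11 did not. Contractile genes called in stellate-like cells numbered 0, and 2 without a filter on genes (Acta2 and Tagln), 1 in replicates 1 and 2 alone and 2 with the replicate block, and 0 to 1 when a library was left out (1, Acta2, without vehicle replicate 2). Both Acta2 calls rested on the only vehicle library of the fit with Acta2, replicate 3, set against ginkgetin libraries at 0, and carry no result. All genes called there numbered 0, and 30 without a filter, 12 with DESeq2, 20 with barcode set as a term, 59 in replicates 1 and 2 alone, 1 with the Ncam1 and Itga8 sub-cluster added, 54 with the block, and 0 to 6 with a library left out. In mesenchymal-like cells 0 contractile genes were called, and 1 (Myh11) without a filter, and 0 to 0 with a library left out. All genes called there numbered 1, and 50 without a filter, 16 with DESeq2, 0 without TMM, 40 with barcode set, 8 in replicates 1 and 2 alone, 37 at 250 to 5000 UMIs, 0 without the highest doublet scores, 0 thinned, 0 over all barcodes, 0 without smooth muscle-like cells, 2 with the block, and 0 to 1 with a library left out. In endothelial-like cells all genes called numbered 46, and 19 without a filter, 292 with DESeq2, 17 without TMM, 479 with barcode set, 384 in replicates 1 and 2 alone, 29 thinned, 466 with the block, and 0 to 1 with a library left out, while 0 contractile genes were called (0 to 0). In macrophage-like cells contractile genes called numbered 1, and 2 with barcode set, 0 at 250 to 5000 UMIs, 2 with the block, and 0 to 2 with a library left out. All genes called there numbered 1091, and 682 without a filter, 1734 without TMM, 1705 with barcode set, 175 at 250 to 5000 UMIs, 1684 with the block, and 0 to 1152 with a library left out. Without TMM the median log2 fold change of all genes moved to 0.50 in macrophage-like cells (1564 called higher and 170 lower, beside 598 and 493) and to 0.15 in endothelial-like cells (7 and 10, beside 15 and 31), and Tpm1 in macrophage-like cells was at -1.69. Beyond the calls named, the replicate block changed no other call of a contractile gene in these classes.

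The direction turned for Myl9 in stellate-like cells with a per-cell marker gate (log2 fold change 0.46). In mesenchymal-like cells it turned for Acta2 without the highest doublet scores (0.52), with the block (0.0026) and when a library was left out (-1.31 to 0.65), for Tagln at 250 to 5000 UMIs (1.87), and for Tpm1 there (0.067). It turned for Tpm2 without the highest doublet scores (0.58) and for Myl9 in replicates 1 and 2 alone (-0.36), over all barcodes (-0.48), without smooth muscle-like cells (-0.53) and with a library left out (-0.14 to 0.62). The thinned share of mesenchymal-like cells with Acta2 differed by -8.36 points (ginkgetin minus vehicle) and by 2.13 points at 250 to 5000 UMIs. With a library left out, the differences in thinned share were -23.7 to -16.2 points for Tagln in stellate-like cells, -13.0 to -1.97 for Acta2 and -16.8 to -9.38 for Tagln in mesenchymal-like cells, and -4.57 to -1.97 for Tpm1 in endothelial-like cells. The cause was not tested. The stellate-like fits at 250 to 5000 UMIs and without the highest doublet scores were not run, since no vehicle library had 10 cells, and where an arm had 1 library it was assumed to vary like the others. The settings for macrophage-like cells, all barcodes, the added sub-cluster and the cells without smooth muscle-like cells were chosen after seeing the data.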

Other observations

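Actg2, an actin of enteric smooth muscle, had 20 of its 38 UMIs that passed the filter in T cell-like cells, in 11 of 3127 cells. The level there was 3.90, 2.38 and 1.59 CPM in the vehicle libraries and 0.563, 0 and 1.07 CPM in the ginkgetin libraries. The groups did not overlap (two-sided exact permutation p = 0.1, the smallest possible), and the gene did not pass the low-count filter of the fit over all genes.

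Across 87 sums of a class in a library (17 classes), the genes outside the set whose level was most like that of Acta2 on the log2(CPM + 10) scale included Slc24a3 (Pearson r = 0.83), Gm26760 (0.81), Gm32618 (0.77) and Gm5622 (0.75). These 4 genes had 5 to 27 UMIs in all the sums, which share libraries and depth, so the values are a description only. Without the highest Acta2 sum, stellate-like cells of vehicle replicate 3, r was 0.72, 0.67, 0.68 and 0.45 in the same order. For Tagln r was 0.54, and 0.26 without that sum.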
